A study of Rattus norvegicus with 6 samples.

Results

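The tumour necrosis factor (TNF) superfamily of ligands and the TNF receptor superfamily were examined in whole ovaries of female Wistar rats on postnatal day (PND) 7. Members were defined by symbol, with earlier results of these data known. They were Tnf, Lta, Ltb, Faslg, Cd40lg, Cd70, Fas, Cd40, Cd27, Ltbr, Ngfr and every gene whose symbol begins with Tnfsf or Tnfrsf and a number. A probe was present for 32 such genes, 14 of them ligands and 18 receptors, out of 15154 genes with a symbol on the array. These 32 genes had 36 probes, and the brightest probe of each gene was used. Of the 41 family symbols in the RefSeq table used for naming, Tnfrsf10b, Tnfrsf11a, Tnfrsf13b, Tnfrsf13c, Tnfrsf22, Tnfrsf26, Tnfsf13b, Tnfsf18 and Tnfsf8 were not matched to a probe and were not analysed here.

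LPS-treated pups had received lipopolysaccharide of Salmonella enterica, serotype Enteritidis, at 0.05 mg/kg by intraperitoneal injection on PNDs 3 and 5, and saline-treated pups an equal volume of saline on the same days. Each treatment was measured on 3 single-colour arrays, which carried the ovaries of pups from more than a single litter per treatment. Treatment was assigned by whole litter, so differences between litters could not be told apart from treatment. The pups and litters behind each array were not used here, so the p-values measure the spread between these arrays and not between litters. All 6 arrays lay on 1 slide, with LPS replicates 2 and 3 in a row of their own and LPS replicate 1 in the row of the 3 saline arrays.

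Ligands of this family are trimeric membrane proteins, several of which are also shed as soluble cytokines, and they act by clustering receptors on the target cell. Receptors with a cytoplasmic death domain can recruit FADD and caspase-8, receptors that bind TRAF adaptors signal mainly to NF-κB and MAP kinases, and decoy receptors bind ligand without signalling. In the ovary, TNF from macrophages, oocytes and granulosa cells is known for its part in oocyte loss, follicle atresia and luteal regression, and LPS is a classical inducer of Tnf transcription in macrophages through Toll-like receptor 4.

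Values are given as log2 signal, which is the log2 of the background-subtracted probe intensity minus the 75th percentile of its array, so that a difference of 1 is a 2-fold difference. Probes bind with different strength, and levels were therefore compared between arrays only and never between genes. From 66.3 to 70.4% of spots were well above background on the saline arrays and from 72.4 to 76.0% on the LPS arrays. All 6 oocyte markers with a probe, among them Gdf9 and Zp3, and 5 of 6 granulosa cell markers were measured well above background on every array. Saline replicates 2 and 3 also carried transcripts of the adrenal gland. Cyp11b1, the adrenal enzyme that makes corticosterone, had a log2 signal of 5.62 and 6.05 on these arrays, and it was not well above background on the other 4. The summed signal of 6 adrenal cortex markers, in units of the 75th percentile, was 1.18, 146 and 203 on saline replicates 1, 2 and 3 and from 0.603 to 1.37 on the LPS arrays, and that of 8 adrenal medulla markers was 5.96, 86.6 and 56.3 against 3.14 to 5.54. For members whose highest or lowest arrays were these, the fold change is also given without them, which leaves saline replicate 1 as a lone control array.

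No member was changed at the 2-fold and unadjusted p criterion, against 186 of 30367 probes called higher (0.613%) and 327 called lower (1.08%) on the array as a whole. No member reached an adjusted p under 0.05 in limma either, and no probe on the array did. The fitted log2 fold change of LPS over saline ranged from -0.70 to 0.65 over the 32 members with a median of -0.01, beside a median of -0.04 over all probes. It was above 0 for 16 members and below 0 for 16, and 44.8% of all probes were above 0. By role, the median was -0.09 over 14 ligands, 0.05 over 5 death domain receptors and -0.07 over 12 receptors that bind TRAF adaptors. The highest fold changes with a signal on most arrays were those of Tnfrsf9 and Tnf, and the lowest were those of Cd40 and Tnfrsf4.

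**Figure D1:**
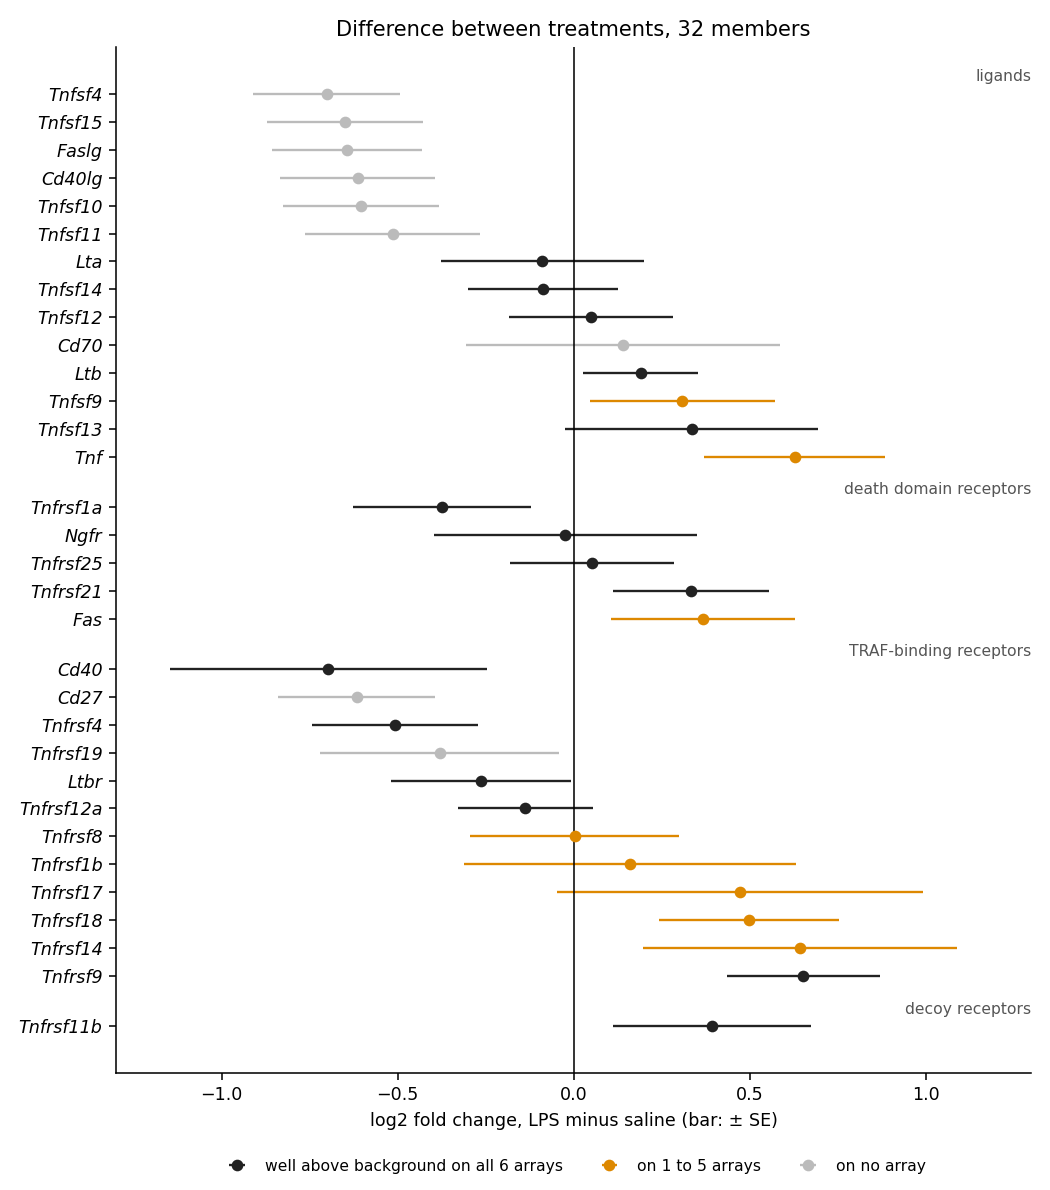
Fitted log2 fold change of LPS over saline (horizontal axis, points, with bars of 1 standard error) for the 32 members, grouped by role. Black marks members well above background on all 6 arrays, orange those on 1 to 5 arrays and grey those on no array, and no point reaches 1 or -1, the 2-fold limit.

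At an unadjusted p under 0.05 there were 2 members higher after LPS, Tnf and Tnfrsf9, and 6 lower, all 6 of which were well above background on no array. With the replicate number as a block, Tnf no longer passed this level and Tnfrsf9 alone was higher. On the array as a whole 2.46% of probes were higher and 14.1% lower at this level. Among probes well above background on no array the lower share was 46.5%, while among those well above background on all 6 arrays it was 2.39%. Of the 15 members in the latter class 1 was higher and 0 were lower, beside 1.69% higher over the class. The groups did not overlap for 8 members, 1 higher and 7 lower, where 5.02% of all probes were higher and 18.4% lower without overlap. All 6 lower members thus belonged to the class of dim probes, in which such calls were most frequent.

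More members were well above background on the LPS arrays than on the saline arrays. From 21 to 22 of the 32 members were well above background on an LPS array and from 16 to 17 on a saline array, and the share of all spots was higher on the LPS arrays too. The 15 members well above background on all 6 arrays were the ligands Lta, Ltb, Tnfsf12, Tnfsf13 and Tnfsf14 and the receptors Tnfrsf1a, Tnfrsf21, Tnfrsf25, Ngfr, Cd40, Ltbr, Tnfrsf4, Tnfrsf9, Tnfrsf12a and Tnfrsf11b. Tnf and Tnfrsf1b were well above background on 5 arrays, all but saline replicate 1. Tnfrsf17, the B cell maturation antigen of plasma cells, was well above background on saline replicate 1 and all LPS arrays. A further 5 members, Tnfsf9, Fas, Tnfrsf18, Tnfrsf14 and Tnfrsf8, were well above background on 1 to 3 LPS arrays and no saline array.

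For these 5 members only a bound on the fold change could be given, with the saline arrays set at the lowest probe well above background or at the probe's own signal, whichever was higher. The bound was under 1-fold for each, so no fold change is stated. Tnfsf9, the ligand of Tnfrsf9, had a log2 signal of -4.63, -4.60 and -5.41 on saline replicates 1, 2 and 3 and of -4.60, -4.39 and -4.72 on LPS replicates 1, 2 and 3. Fas, the receptor of Fas ligand, gave -5.56, -4.72 and -5.26 on the saline arrays and -5.06, -4.74 and -4.63 on the LPS arrays. Tnfrsf14, the herpesvirus entry mediator, gave -4.32, -5.38 and -5.60 on the saline arrays and -3.90, -5.16 and -4.31 on the LPS arrays. All 3 overlapped between the treatments, and the lowest signal called well above background was itself lower on each LPS array (from -5.30 to -4.85) than on each saline array (from -4.61 to -4.20).

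Tnf encodes the founding ligand of the family, the cytokine that activated macrophages release in response to LPS. Its log2 signal was -3.73, -3.18 and -3.69 on saline replicates 1, 2 and 3 and -2.50, -3.03 and -3.18 on LPS replicates 1, 2 and 3. LPS replicate 1 stood highest, and LPS replicate 3 and saline replicate 2 lay within 0.00346 of each other, so that the groups touched. The log2 fold change was 0.63 (standard error 0.26, limma adjusted p = 0.298), or 1.55-fold, and an exact two-sided permutation test of the 6 values gave p = 0.2, where 0.1 is the lowest that 3 arrays against 3 allow. Over the alternatives the limma adjusted p ran from 0.262 to 0.963. Within the slide row that holds both treatments, where LPS replicate 1 is the lone LPS array, the log2 fold change was 1.03. With normexp background correction it was 0.28 and without background correction 0.16. LPS replicate 1 also had the lowest summed signal of granulosa cell and oocyte markers, and the part of this in the Tnf values was not tested. With the replicate number as a block the fold change was the same, with a standard error of 0.25 and an unadjusted p of 0.0607 in limma, against 0.0468 without the block.

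The 250 bases before the annotated start of the 3 genes shown here are given because Tnf and Tnfrsf9 were the members higher at an unadjusted p under 0.05 and Ltb is a neighbour of Tnf in the same cluster of ligand genes. The sequences are those of RefSeq on build GRCr8, 5′ to 3′ on the strand of the gene, and capitals mark matches to the NF-κB consensus, searched on both strands.
Tnf, chr20:3626435-3626684, plus strand: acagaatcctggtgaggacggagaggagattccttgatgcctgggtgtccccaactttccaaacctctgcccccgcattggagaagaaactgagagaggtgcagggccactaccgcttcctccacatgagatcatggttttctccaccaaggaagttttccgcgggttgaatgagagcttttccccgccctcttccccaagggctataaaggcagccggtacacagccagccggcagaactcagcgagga
Ltb, chr20:3634055-3634304, minus strand: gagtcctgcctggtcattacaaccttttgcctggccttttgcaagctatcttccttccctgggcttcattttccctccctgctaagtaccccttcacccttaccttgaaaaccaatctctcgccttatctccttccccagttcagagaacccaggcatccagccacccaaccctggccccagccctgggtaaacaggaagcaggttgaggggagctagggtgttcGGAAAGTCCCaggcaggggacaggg
Tnfrsf9, chr5:166664244-166664493, plus strand: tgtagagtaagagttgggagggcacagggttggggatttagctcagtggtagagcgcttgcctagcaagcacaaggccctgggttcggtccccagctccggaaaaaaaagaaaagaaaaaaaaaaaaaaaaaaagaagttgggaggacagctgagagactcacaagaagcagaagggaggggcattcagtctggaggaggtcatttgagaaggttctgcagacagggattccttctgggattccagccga
The consensus matched the Ltb stretch once and matched neither the Tnf nor the Tnfrsf9 stretch. It was found in 4 of the 23 member promoters that the table holds, those of Lta, Ltb, Tnfrsf8 and Tnfsf14, and in 3.54% of all 33469 promoters of the same length. None of these 4 genes had an unadjusted p under 0.05. A match is a description of these letters, and neither it nor its absence shows whether NF-κB bound.

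The other genes of the Tnf cluster were nearly level between the treatments. Ltb, which forms the membrane-anchored lymphotoxin that signals through Ltbr in lymphoid organ development, had a log2 signal of -3.08, -2.85 and -3.12 on the saline arrays and -2.84, -2.75 and -2.89 on the LPS arrays. Its log2 fold change was 0.19 (standard error 0.16, limma adjusted p = 0.721), and a single saline array, replicate 2, lay within the LPS range. Lta, the secreted lymphotoxin, gave -1.93, -2.73 and -2.42 on the saline arrays and -2.02, -2.58 and -2.75 on the LPS arrays, and the groups overlapped throughout. Its log2 fold change was -0.09 (standard error 0.29).

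The remaining ligands with a signal on all arrays did not differ beyond the spread between arrays. Tnfsf12 (TWEAK), a cytokine of tissue injury and repair, gave 2.63, 1.96 and 1.95 on saline replicates 1, 2 and 3 and 2.31, 2.26 and 2.11 on the LPS arrays. Saline replicate 1 was the highest of the 6 arrays and the other saline arrays the lowest, and the log2 fold change was 0.05 (standard error 0.23, limma adjusted p = 0.986). Without saline replicates 2 and 3 it was -0.40. Tnfsf13 (APRIL), a survival factor of plasma cells, showed the same order, with 0.44, -0.82 and -0.65 on the saline arrays, 0.29, -0.22 and -0.10 on the LPS arrays and a log2 fold change of 0.34 (standard error 0.36). Its direction turned without saline replicates 2 and 3, to -0.45 (standard error 0.31), and it was 0.10 to 0.73 with any 1 array left out. Tnfsf14 (LIGHT), a second ligand of Ltbr, differed by -0.09 (standard error 0.21).

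Tnfrsf1a encodes the death domain receptor through which soluble TNF acts in most cells. Its log2 signal was 0.43, 0.62 and 0.49 on the saline arrays, 0.66 on LPS replicate 1 and -0.10 and -0.15 on LPS replicates 2 and 3. The pair of low arrays shared the slide row that held no saline array. It differed between the treatments by a log2 fold change of -0.37 (standard error 0.25, limma adjusted p = 0.591), and it was 0.15 within the row that holds both treatments. For Tnfrsf1a the slide row and the treatment could not be told apart on LPS replicates 2 and 3.

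Tnfrsf1b encodes the second TNF receptor, which lacks a death domain and is found mainly on immune and endothelial cells. It gave -4.89, -3.13 and -3.20 on saline replicates 1, 2 and 3 and -3.59, -3.65 and -3.50 on the LPS arrays. The 3 LPS values lay close together between the saline values, of which the lowest was not well above background. The log2 fold change was 0.16 (standard error 0.47, limma adjusted p = 0.969). It was -0.41 without saline replicate 1 and 1.31 without saline replicates 2 and 3, so its direction rested on which saline arrays were kept. Without background correction it was -0.11.

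**Figure D2:**
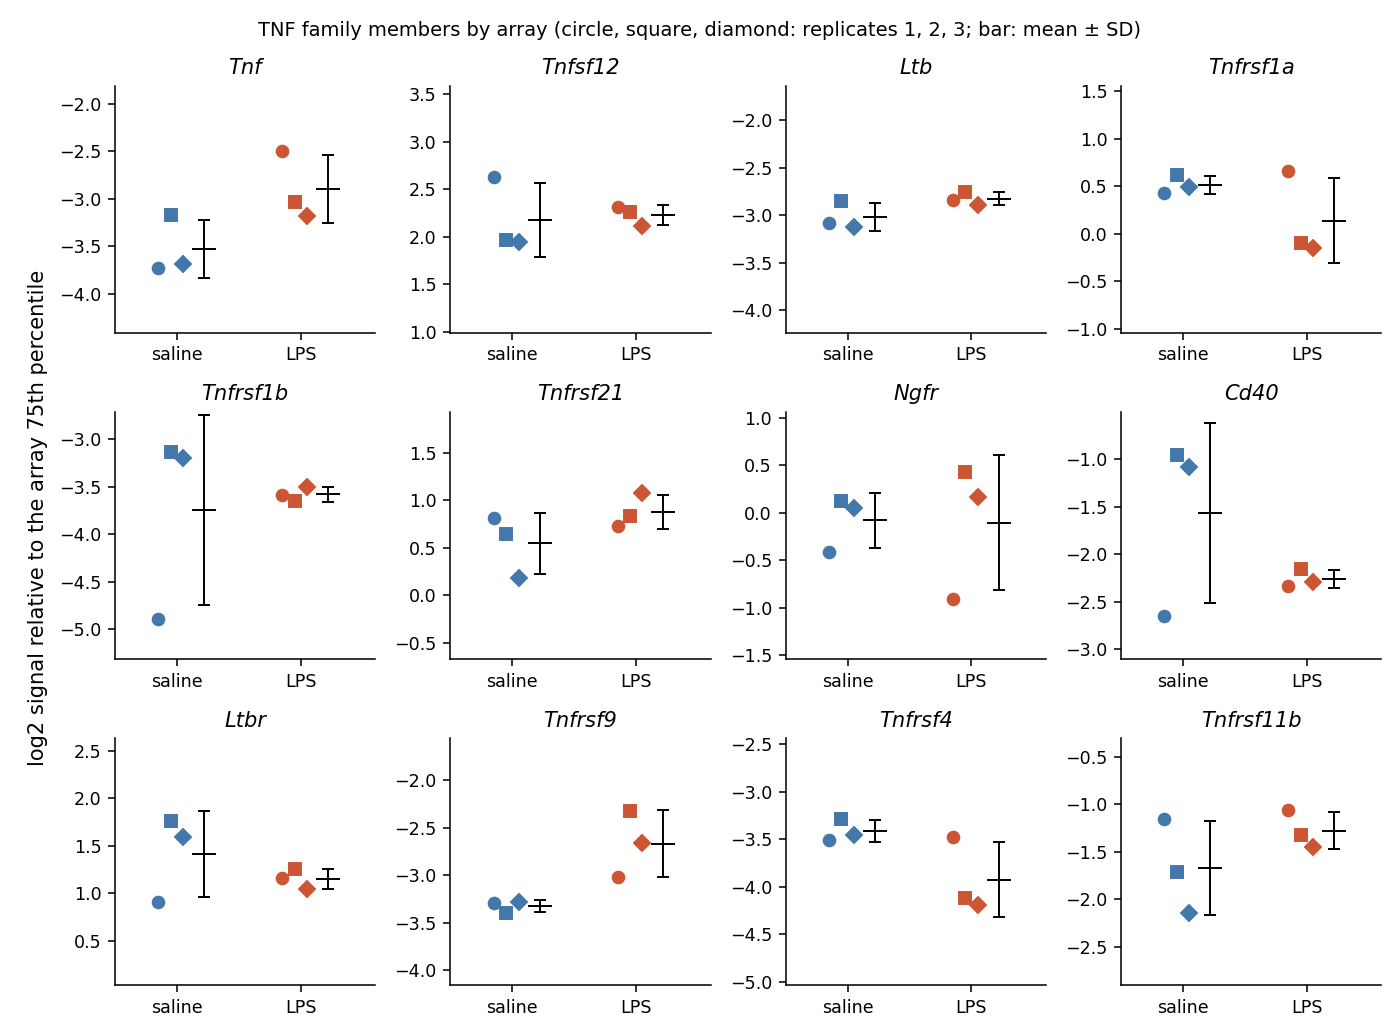
Log2 signal relative to the array 75th percentile (vertical axis, 2.6 log2 units in each panel) of 12 members on the 3 saline (blue) and 3 LPS (orange) arrays, with circle, square and diamond for replicates 1, 2 and 3 and a bar for the mean and SD. All 3 LPS values of Tnfrsf9 lay above its saline values, whereas Cd40 and Tnfrsf1b had the widest spread of the 12 within the saline group.

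None of the other death domain receptors had an unadjusted p under 0.05. Tnfrsf21 (death receptor 6), which is expressed in neurons and developing tissues, gave 0.81, 0.64 and 0.18 on the saline arrays and 0.73, 0.83 and 1.07 on the LPS arrays, with a log2 fold change of 0.33 (standard error 0.22, limma adjusted p = 0.579) and of 0.07 without saline replicates 2 and 3. Its dimmer probe gave -2.41, -2.70 and -2.79 on the saline arrays and -2.19, -2.35 and -2.19 on the LPS arrays. The groups did not overlap at this probe, and its log2 fold change was 0.39 (standard error 0.18, limma adjusted p = 0.342). Both probes of Tnfrsf21 had a signal well above background on the 6 arrays and both were higher on average after LPS.

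Ngfr, the low-affinity neurotrophin receptor of nerve, Schwann and mesenchymal cells, gave -0.42, 0.12 and 0.06 on the saline arrays and -0.91, 0.43 and 0.16 on the LPS arrays. Replicate 1 was the lowest array of each treatment, and the log2 fold change was -0.02 (standard error 0.37). Without LPS replicate 1 it was 0.38, and within the slide row that holds both treatments it was -0.83. LPS replicate 1 also had the lowest summed signal of the 6 arrays for 6 granulosa cell markers, with 16.1 there and 32.2 to 66.3 elsewhere. The same held for 6 oocyte markers, with 16.6 there and 19.8 to 46.5 elsewhere. Amh, a granulosa cell gene, gave 1.98 there and 3.23 to 4.29 elsewhere. The part of this in the Ngfr values was not tested. Tnfrsf25, the receptor of Tnfsf15 on T cells, differed by 0.05 (standard error 0.23).

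Tnfrsf9 (CD137), an inducible costimulatory receptor of activated T and natural killer cells that is also found on some endothelial and myeloid cells, was the member whose arrays separated by treatment while all 6 were well above background. Its log2 signal was -3.29, -3.39 and -3.27 on the saline arrays, which lay within 0.117 of each other, and -3.02, -2.32 and -2.66 on the LPS arrays. On average the treatments differed by a log2 fold change of 0.65 (standard error 0.22, limma adjusted p = 0.271), or 1.57-fold, with an exact two-sided permutation p of 0.1, the lowest possible here. LPS replicates 2 and 3, the highest arrays, lay in the row without saline arrays, so the row and the treatment could not be told apart on them. With LPS replicate 2, the highest of all, left out the log2 fold change was 0.48. Within the slide row that holds both treatments, where LPS replicate 1 is the lone LPS array, it was 0.30. With normexp background correction it was 0.28 and without background correction 0.16. It was positive under all 22 of the alternatives, as Tnf was. Alternatives that changed only the test, the replicate block or the probe filter left the fold change as it was, so its sign could not turn there.

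Markers of T and natural killer cells were read beside Tnfrsf9. Of 10 such markers 0 were higher and 2, Cd3e and Cd2, were lower at an unadjusted p under 0.05, against 2.46% and 14.1% of all probes, and their summed signal ran from 1.35 to 1.98 on the saline arrays and from 1.51 to 1.93 on the LPS arrays. Cd3e, a defining part of the T cell receptor complex, and Cd2, Cd5, Ncr1 and Klrb1 were well above background on no array, whereas Cd3d, Lck, Cd8a and Cd4 were on all 6. Among all probes well above background on no array 46.5% were lower at that level. Cd4, a coreceptor of helper T cells that rat macrophages also carry, had every LPS array above every saline array, as Tnfrsf9 had, with a log2 fold change of 0.28 (standard error 0.17, limma adjusted p = 0.529). Of the 10 markers 1 was higher and 3 were lower without overlap, against 5.02% and 18.4% of all probes. Cd3g differed by 0.49 (standard error 0.30), Cd8a by 0.60 (standard error 0.52), Lck by 0.08 (standard error 0.16) and Cd3d by -0.03 (standard error 0.22). Of 12 macrophage markers 3 were higher at an unadjusted p under 0.05 and 0 lower, against 2.46% and 14.1% of all probes. The summed signal of the list was 10.23 to 11.86 on the saline arrays and 12.81 to 12.99 on the LPS arrays, so that it did not overlap. Many lists were summed, and full separation of 3 arrays from 3 has a p of only 0.1 in an exact two-sided permutation test. The sums of adrenal medulla markers and of genes that TNF induces, given below, separated in the other direction, the latter through Sod2. Csf1r, the receptor of the macrophage growth factor CSF1, differed by 0.52 (standard error 0.15), and Adgre1, a classical rodent macrophage surface marker, by 0.81 (standard error 0.24). Mrc1 (CD206) was well above background on the LPS arrays alone. It gave -4.99, -4.00 and -4.22 on the saline arrays and -3.76, -3.39 and -2.50 on the LPS arrays. The bound on its fold change was 2.08-fold, which compares group means and leaves out the spread between arrays (limma adjusted p of the fit = 0.271). Cd68, Cd163 and C1qa had fold changes below 0, at -0.16, -0.16 and -0.07. The part of these lists in the Tnf and Tnfrsf9 values was not tested. In RNA of a whole organ, a change in the number of cells of a type and a change in RNA per cell cannot be told apart.

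Cd40 encodes the costimulatory receptor of antigen-presenting cells, which activates both branches of NF-κB. Its log2 signal was -2.65, -0.95 and -1.08 on saline replicates 1, 2 and 3 and -2.33, -2.15 and -2.30 on the LPS arrays. Saline replicates 2 and 3 stood more than 1 log2 unit above every other array, and saline replicate 1 was the lowest of all 6. The log2 fold change was -0.70 (standard error 0.45, limma adjusted p = 0.558). It was -1.24 without saline replicate 1, with an adjusted p of 0.0518 in limma, and 0.39 without saline replicates 2 and 3. Over the alternatives the adjusted p ranged from 0.0518 to 0.981. A second Cd40 probe had the same profile, with -2.88, -1.61 and -1.55 on the saline arrays and -2.80, -2.38 and -2.55 on the LPS arrays.

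Ltbr, the lymphotoxin β receptor of stromal and epithelial cells, gave 0.90, 1.76 and 1.59 on saline replicates 1, 2 and 3 and 1.16, 1.26 and 1.05 on the LPS arrays. As for Cd40, saline replicates 2 and 3 were the highest arrays and saline replicate 1 the lowest. LPS over saline gave a log2 fold change of -0.26 (standard error 0.26, limma adjusted p = 0.773), -0.52 without saline replicate 1 and 0.25 without saline replicates 2 and 3. Cd40, Ltbr and Tnfrsf1b were thus highest on the arrays that carried adrenal transcripts, as was Tnfrsf4 by a small margin. Conversely, Tnfsf12, Tnfsf13, Tnfrsf11b and Tnfrsf21 were lowest on these arrays. The summed signal of 7 endothelial markers was also highest there, with 6.79, 10.99 and 9.93 on saline replicates 1, 2 and 3 and 6.70 to 8.00 on the LPS arrays. The markers were not of a kind, and the sum weighs the highest signals most. Kdr was highest on saline replicates 2 and 3, at 2.51 and 2.44, whereas Cdh5 was lowest there, at -0.30 and -0.25. The part of the adrenal and endothelial transcripts in these members was not tested.

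**Figure D3:**
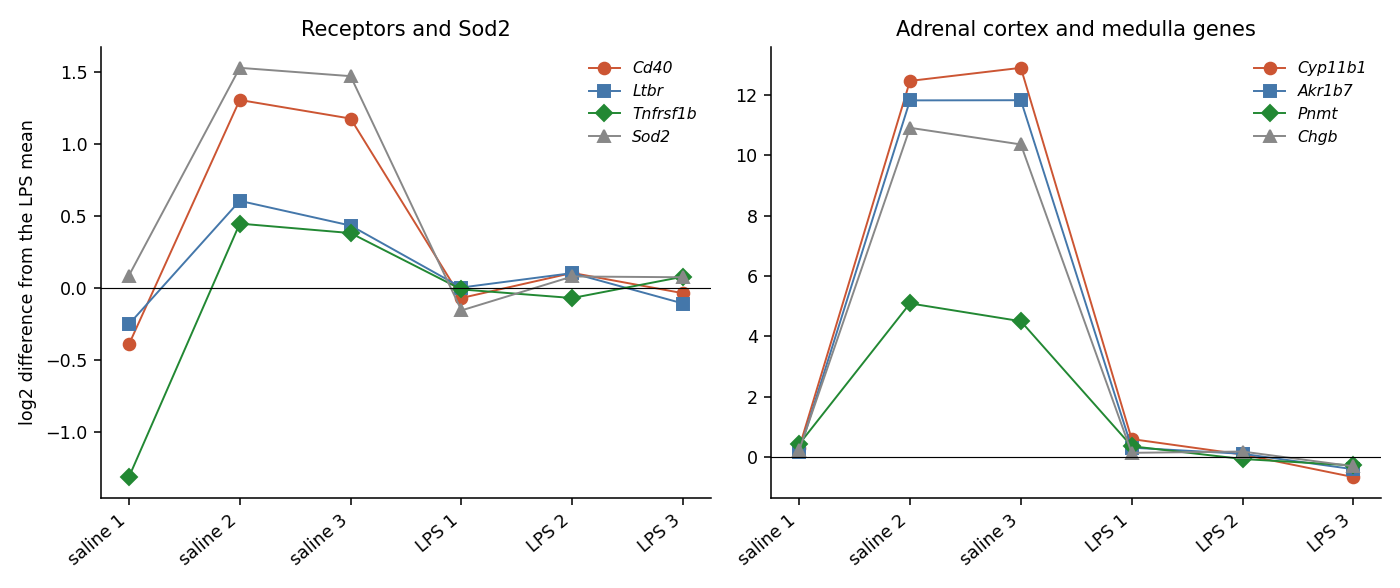
Log2 difference of each array from the mean of the 3 LPS arrays (vertical axes, which differ in range) for Cd40, Ltbr, Tnfrsf1b and the TNF target Sod2 (left) and for the adrenal cortex genes Cyp11b1 and Akr1b7 and the adrenal medulla genes Pnmt and Chgb (right). Saline replicates 2 and 3 stood above the other 4 arrays in both panels, and on those 4 the signals of Chgb, Akr1b7 and Cyp11b1 were not well above background.

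Tnfrsf4 (OX40), a costimulatory receptor of activated T cells, gave -3.51, -3.29 and -3.46 on the saline arrays, -3.47 on LPS replicate 1 and -4.12 and -4.19 on LPS replicates 2 and 3. Only the LPS arrays in the row without saline arrays were low. The log2 fold change was -0.51 (standard error 0.24, limma adjusted p = 0.343), within the slide row that holds both treatments it was -0.05, and without saline replicates 2 and 3 it was -0.42. For Tnfrsf4, as for Tnfrsf1a, the row and the treatment could not be told apart on these 2 arrays. Tnfrsf12a (Fn14), the receptor of Tnfsf12, was level, with 0.02, 0.38 and 0.18 on the saline arrays, 0.16, 0.19 and -0.18 on the LPS arrays and a log2 fold change of -0.14 (standard error 0.19).

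Tnfrsf11b (osteoprotegerin) is a secreted decoy receptor that binds Tnfsf11 (RANKL) and was the lone decoy receptor with a probe. It gave -1.15, -1.71 and -2.15 on saline replicates 1, 2 and 3 and -1.06, -1.33 and -1.45 on the LPS arrays. Saline replicate 1 lay among the LPS arrays and the other saline arrays below them. It differed between the treatments by a log2 fold change of 0.39 (standard error 0.28, limma adjusted p = 0.625), 0.65 without saline replicate 1, 0.15 without saline replicate 3 and -0.12 without saline replicates 2 and 3. Its ligand Tnfsf11 was well above background on no array.

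The 9 members that were well above background on no array were the ligands Faslg, Cd40lg, Cd70, Tnfsf4, Tnfsf10, Tnfsf11 and Tnfsf15 and the receptors Cd27 and Tnfrsf19. Faslg and Tnfsf10 (TRAIL) encode death-inducing ligands, Cd40lg, Cd70 and Tnfsf4 encode ligands that activated lymphocytes and antigen-presenting cells show, and Tnfsf11 encodes the osteoclast factor RANKL. Both treatments were below the level at which a probe counts as measured, so their fitted fold changes, the grey points of the plot of all 32 members, compare signals near background and are described as a group only. Their signal followed that of dim probes in general. Faslg, for example, gave -6.61, -6.29 and -6.67 on the saline arrays and -7.00, -7.01 and -7.49 on the LPS arrays, beside medians of -6.59, -6.27, -6.63, -6.90, -6.95 and -7.45 over all 8023 probes that were well above background on no array. Cd70 alone departed from this by more than 1 log2 unit, with -5.56 on LPS replicate 2 and -5.82 on LPS replicate 3.

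**Figure D4:**
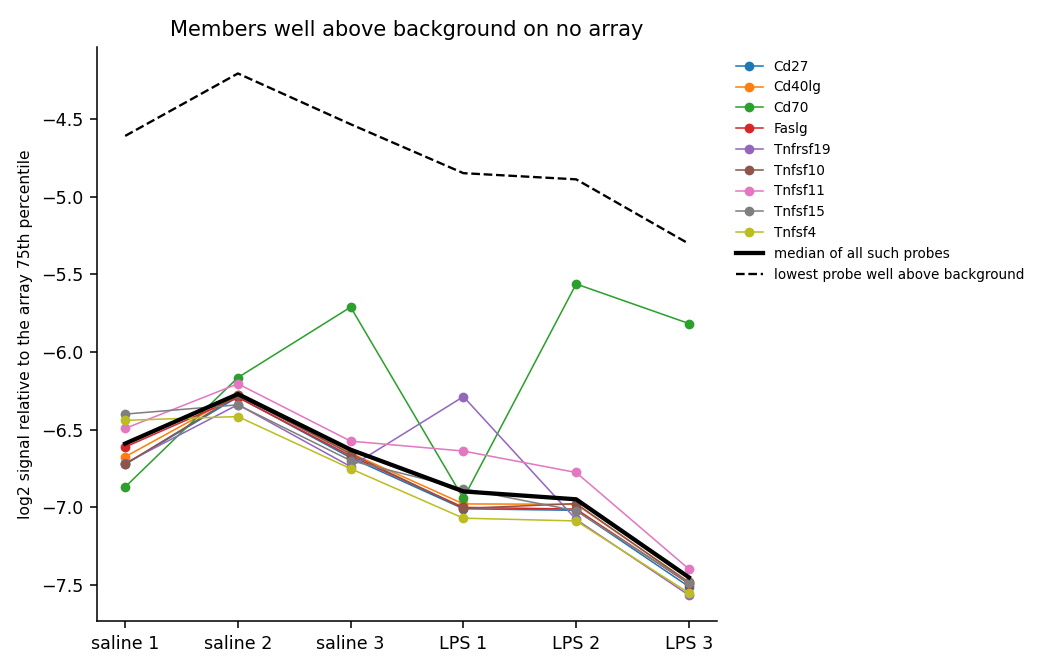
Log2 signal relative to the array 75th percentile (vertical axis) of the 9 members well above background on no array, on the 6 arrays (horizontal axis). The thick black line is the median of all such probes, the dashed line the lowest probe well above background on each array, and 7 of the 9 members stay within 0.3 of the thick line throughout, while Cd70 and Tnfrsf19 leave it on 1 or more arrays.

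The fitted log2 fold changes of these 9 members had a median of -0.61, where the median over all probes of this class was -0.57. It was -0.02 after quantile normalization and -0.24 with normexp background correction. Of the 9, 7 had groups that did not overlap and all 7 were lower, where 55.2% of the class were lower without overlap. The second probes of Fas and Tnfrsf8 were also well above background on no array.

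Set out by ligand and receptor, 14 known pairs had a probe for both partners. Both partners were well above background on all 6 arrays in 3 of them, Ltb with Ltbr, Tnfsf14 with Ltbr and Tnfsf12 with Tnfrsf12a. In 4 pairs the receptor was well above background on all arrays and the ligand on none, namely Cd40lg with Cd40, Tnfsf4 with Tnfrsf4, Tnfsf11 with Tnfrsf11b and Tnfsf15 with Tnfrsf25. Cd70 and Cd27 were both well above background on no array. Tnf had a log2 fold change of 0.63 beside -0.37 for Tnfrsf1a and 0.16 for Tnfrsf1b, both of which changed sign under some alternatives. Tnfrsf9 was well above background on all arrays and its ligand Tnfsf9 on the LPS arrays alone. The Tnfsf9 signal overlapped between the treatments, however, and the lowest signal called well above background was lower on each LPS array.

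The pathway beneath the receptors was read from gene lists. Of 24 adaptor, death complex and ubiquitin enzyme genes with a probe, 2 were higher and 1 lower at an unadjusted p under 0.05, against 2.46% and 14.1% of all probes, and the median log2 fold change was 0.02. Cflar, which encodes the caspase-8 inhibitor FLIP, gave -3.03, -2.85 and -2.55 on the saline arrays and -1.93, -2.30 and -2.41 on the LPS arrays. Each LPS array lay above each saline array, with a log2 fold change of 0.60 (standard error 0.22, limma adjusted p = 0.276). With the replicate number as a block its unadjusted p in limma rose from 0.0294 to 0.0546. Fadd was well above background on 2 LPS arrays and no saline array, with no bound above 1-fold, and Cradd on no array. Tradd, the first adaptor of Tnfrsf1a, differed by -0.34 (standard error 0.17), Ripk1 by 0.10 (standard error 0.24), Traf2 by 0.15 (standard error 0.17) and Casp8 by 0.27 (standard error 0.23).

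Of 12 listed genes of the NF-κB module 9 had a matched probe. Of these 9, 0 had an unadjusted p under 0.05, against 2.46% of all probes higher and 14.1% lower, and among so few genes 0 lies near these shares. Their median log2 fold change was 0.02. Rela, which encodes the transactivating subunit, differed by 0.10 (standard error 0.21), Nfkb2 by 0.02 (standard error 0.21) and Nfkbia, the inhibitor whose own transcription NF-κB drives, by -0.13 (standard error 0.15).

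Of 24 genes that TNF is known to induce, 1 was higher and 7 lower at an unadjusted p under 0.05, against 2.46% and 14.1% of all probes, with a median of -0.14. Their summed signal was 16.11, 18.48 and 17.64 on saline replicates 1, 2 and 3 and 14.69 to 15.20 on the LPS arrays, without overlap. Such a sum weighs the genes with the highest signals most. The separation rested on Sod2, described below, since the sums of the other genes overlapped between the treatments. Of the 7 lower genes 4, Cxcl1, Cxcl2, Il6 and Bcl2a1, were well above background on no array, a class in which 46.5% of probes were lower. Sod2, the mitochondrial superoxide dismutase, had a log2 signal of 0.70, 2.15 and 2.09 on saline replicates 1, 2 and 3 and of 0.46, 0.70 and 0.69 on the LPS arrays. Saline replicate 1 lay within 0.00594 of LPS replicate 2, and the log2 fold change of -1.03 (standard error 0.40, limma adjusted p = 0.286) rested on the arrays that carried adrenal transcripts, being -0.09 without them. Cxcl10, an interferon-inducible chemokine, gave -4.24, -2.27 and -2.37 on the saline arrays and -4.50, -4.22 and -4.16 on the LPS arrays. Its log2 fold change was -1.33 (standard error 0.52, limma adjusted p = 0.287), and -0.05 without saline replicates 2 and 3. Cxcl10, the remaining lower gene, Mmp9, and the higher gene, Ccl7, were well above background on 4, 3 and 2 arrays and are named because their counts are small. The adhesion molecules Icam1 and Vcam1 differed by -0.01 (standard error 0.21) and -0.70 (standard error 0.31), or by 0.21 and -0.16 without saline replicates 2 and 3, and Tnfaip6 by 0.23 (standard error 0.35).

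**Figure D5:**
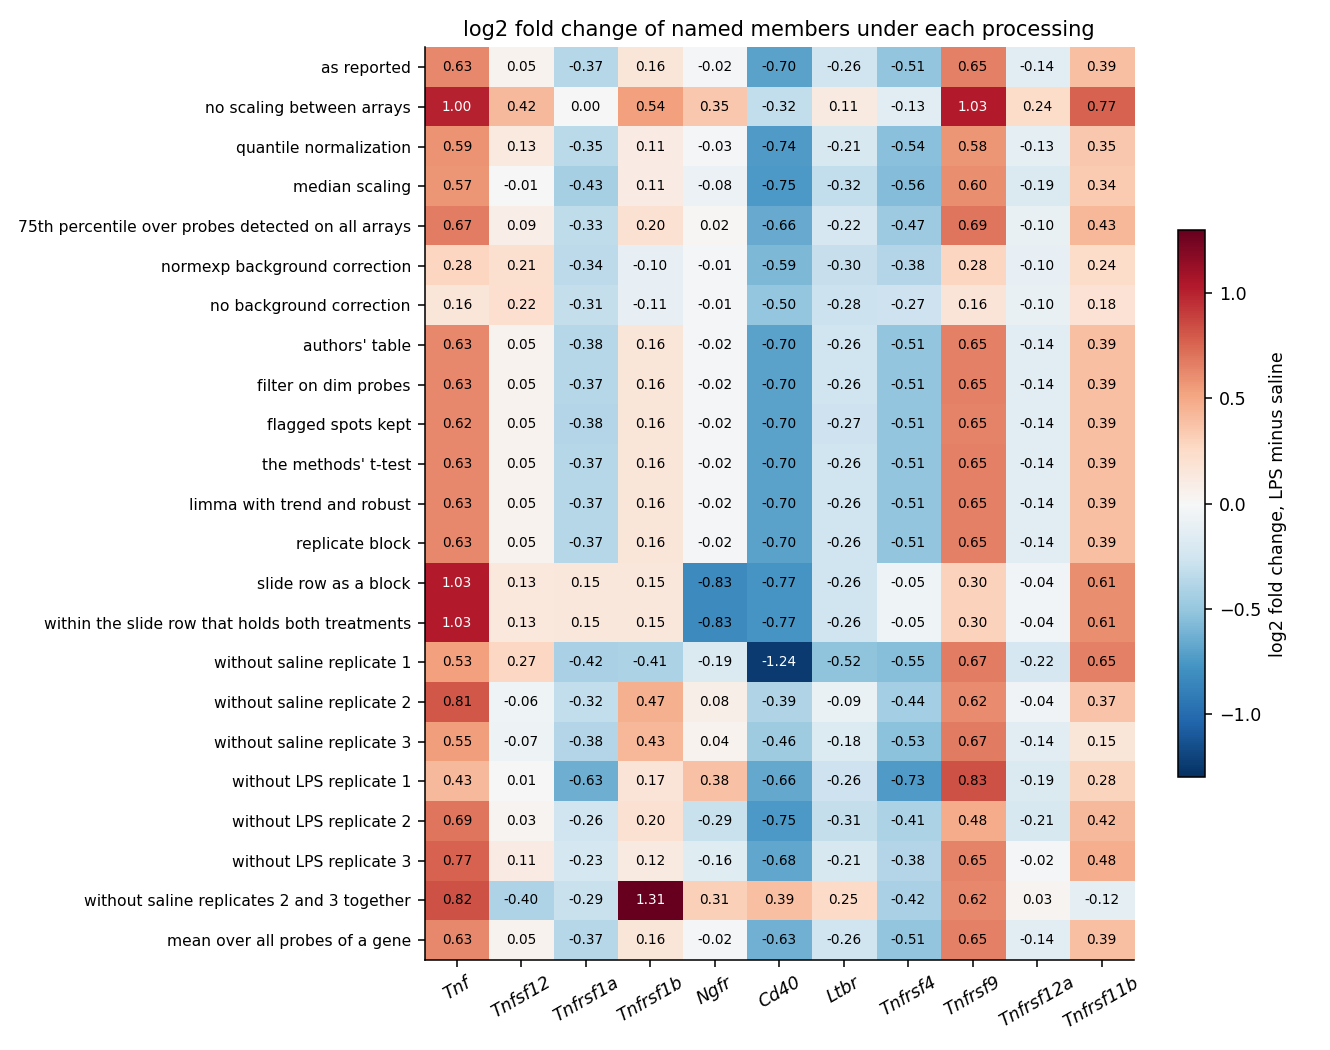
Log2 fold change of LPS over saline for 11 named members (columns) as reported and under each alternative processing (rows), with red for higher and blue for lower after LPS. The row labelled as the methods' t-test is an equal-variance t-test, which the paper does not name. Tnf and Tnfrsf9 were positive and Tnfrsf4 negative in every row, whereas Cd40 and Ltbr turned positive without saline replicates 2 and 3 and Tnfrsf1a turned positive with the slide row as a block, and Ltbr and Tnfrsf1a did so without scaling between arrays.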

How the data were processed

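Ovarian RNA of 3 LPS-treated and 3 saline-treated rat samples was hybridized to single-colour Agilent arrays. The authors deposited spot intensity values, as Agilent Feature Extraction 10.5.1.1 wrote them, and a series table that holds the same processed signals within 0.497%. The submitters' processing notes name lumi, with no step given. The log2 values were computed here from the deposited intensities. They are the log2 processed signal minus the 75th percentile of each array, after removal of spots flagged as non-uniform or outlying, averaged over the spots of a probe. A probe counted as well above background on an array where all its unflagged spots carried that flag of the software. The treatments were compared over 30367 probes with limma 3.58.1 in R 4.3.3, using lmFit and eBayes and Benjamini-Hochberg adjustment, and the procedure was tested on simulated data. The 2-fold limit and the p threshold of 0.05 follow the paper's criterion for the arrays. Tests were two-sided.

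Probes were named through RefSeq accessions with a GRCr8 table, which gave a symbol for 17998 of 21406 RefSeq probes, since the gene name column of the files was empty. Members, roles and gene lists were chosen with earlier results of these data known. Array values were given for members with an unadjusted p under 0.05 and a signal on all arrays of a treatment, for members on all 6 arrays with a log2 fold change of at least 0.5 in size, and for Tnf, Fas, Ltbr, Ngfr, Cd40, Faslg, both TNF receptors, RANKL and osteoprotegerin, TWEAK and its receptor. Genes of the pathway lists were named where they met the first of these conditions. Other members, list genes and markers were named for their roles after their values had been seen. Marker lists that no result touched are not described.

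The alternatives, 22 for the fits and 1 for detection, covered scaling, background correction, dim and flagged spots, the authors' table, the test, the probe, the slide row, the replicate number and left-out arrays. The number of arrays limits the precision. Across probes, the deviations of same-numbered LPS and saline arrays from their group means correlated at 0.298, 0.215 and 0.254 for numbers 1, 2 and 3. All 3 exceeded 0.1, and the replicate block took the numbers to pair the arrays. Correlations between arrays of different numbers were not examined, so a pairing is not shown, and no label says what a number stands for. The main fits left a pairing out.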

Additional observations from a re-analysis of the deposited data

How the results depend on the processing

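No member reached an adjusted p under 0.05 under any alternative, an equal-variance t-test of each probe included. The paper names no t-test for the arrays. With the replicate block, which takes a possible pairing of the arrays by number into account, 8 members had an unadjusted p under 0.05, 1 higher and 7 lower, since Tnf lost the call and Tnfsf11 gained it. Of the pathway genes 14 rather than 11 had an unadjusted p under 0.05, as Cflar lost the call and Traf6, Tnfaip2, Sele and Ptgs2 gained it. The block changed no call at the 2-fold criterion or by adjusted p among the members. At the 2-fold and unadjusted p criterion, 3 members passed without scaling between arrays (Tnf, Tnfrsf9 and Tnfrsf14), 1 with the slide row as a block and 1 within the row that holds both treatments (Tnf in each case), and 1 without saline replicates 2 and 3 together (Tnfrsf1b). The count ran from 0 to 2 with any 1 array left out, and was 2 without saline replicate 1 (Cd40 and Tnfrsf14).

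The count of 8 members with an unadjusted p under 0.05 was 4 without scaling, 1 with quantile normalization, 3 with normexp, 2 without background correction, 2 with the filter on dim probes, 2 with the slide row as a block, 2 within the row of both treatments and 1 without saline replicates 2 and 3. It ran from 3 to 11 with any 1 array left out. The filter removed the 6 lower members from the fit. The 8 members without overlap became 5 without scaling, 3 with quantile normalization, 5 with normexp, 4 without background correction, 1 with the filter, 18 within the row and 21 without saline replicates 2 and 3, the last 2 with a lone array in a group, and from 8 to 17 with any 1 array left out. Of 32 members 16 were higher as reported, 9 with normexp, 8 without background correction and 22 without scaling. The 11 pathway genes with an unadjusted p under 0.05 became 5 without scaling, 6 with quantile normalization, 5 with normexp, 3 without background correction, 2 with the filter, 4 with the row as a block, 3 within the row and 2 without saline replicates 2 and 3, and from 2 to 16 with any 1 array left out. The count of members on all 6 arrays was 22 rather than 15 with the software's other flag, positive and significant.

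The direction of the log2 fold change turned as follows, and the cause was not tested. Without saline replicates 2 and 3, Cd40 was at 0.39, Ltbr at 0.25, Ngfr at 0.31, Tnfrsf11b at -0.12, Tnfrsf12a at 0.034, Tnfsf12 at -0.40, Tnfsf13 at -0.45 and Tnfrsf25 at -0.35. Without scaling, which moved the median of all probes from -0.04 to 0.34, Ltbr was at 0.11, Ngfr at 0.35, Tnfrsf12a at 0.24, Tnfrsf1a at 0.0014, Lta at 0.29 and Tnfsf14 at 0.29. Tnfrsf1a was at 0.15 and Lta at 0.34, both with the slide row as a block and within the row. Tnfrsf1b was at -0.10 with normexp, -0.11 without background correction and from -0.41 to 0.47 with any 1 array left out, turning without saline replicate 1. Ngfr was at 0.017 with the percentile over detected probes, and ran from -0.29 to 0.38 with any 1 array left out, turning without saline replicate 2 (0.08), saline replicate 3 (0.04) or LPS replicate 1 (0.38). Tnfsf12 was at -0.0050 with median scaling, and ran from -0.068 to 0.27 with any 1 array left out, turning without saline replicate 2 (-0.06) or saline replicate 3 (-0.068). With any 1 array left out, Lta ran from -0.30 to 0.12, Tnfrsf25 from -0.092 to 0.25 and Tnfsf14 from -0.27 to 0.047. Tnfrsf25 was also at -0.0017 with median scaling, -0.0043 with normexp and -0.016 without background correction.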

Other observations

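Genes that release TNF from the cell surface were level between the treatments. Of 5 such genes with a probe, all well above background on all 6 arrays, 0 had an unadjusted p under 0.05, beside 1.69% of probes of that detection class higher and 2.39% lower. Adam17, the protease that sheds TNF and both TNF receptors, differed by 0.07 (standard error 0.28) on the log2 scale, its cofactors Rhbdf1 and Rhbdf2 by 0.20 (standard error 0.18) and -0.05 (standard error 0.19), Frmd8 by -0.02 (standard error 0.26), and its inhibitor Timp3 by 0.0048 (standard error 0.29).

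Among receptors of the family whose symbols lie outside the choice of members, Edar, the ectodysplasin receptor of skin appendages, had a log2 signal of -2.14, -2.54 and -2.45 on the saline arrays and -2.63, -2.64 and -2.76 on the LPS arrays. All LPS values were below the saline values, and the log2 fold change was -0.30 (standard error 0.18, limma adjusted p = 0.506). Relt, a lymphoid receptor, differed by 0.07 (standard error 0.29).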
